A study of Homo sapiens with 8 samples.

Results

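The genes described here are 10 long non-coding RNA genes, NEAT1, MALAT1, PVT1, MIAT, GAS5, SNHG1, ZFAS1, EPB41L4A-AS1, MIR22HG and HOTAIRM1, taken by symbol from a written list. No measured value is part of that rule, but the list was drawn up with earlier results of these data known. They were followed through 8 RNA-seq libraries of NB4, an established human cell line derived from acute promyelocytic leukemia, whose defining lesion is the PML/RARα fusion protein. Of the 60483 gene identifiers counted, 13982 had enough reads to be tested, and these include 8 of the 10 listed genes; MIAT and MIR22HG were too low.

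In every group, lentivirus was used to knock down the endogenous PML/RARα, and the cells were analysed at 72 hours. The groups differed in what replaced the fusion: an empty vector (EV), HA-tagged full-length PML/RARα (PR), the HA-tagged F158E mutant, or the HA-tagged ΔIDR mutant, with 2 libraries each. The series describes both mutants as unable to phase separate, so the comparisons ask which transcript levels follow the full-length protein and which follow a mutant. The labels do not tell whether replicates were grown as separate cultures. The p-values weigh a difference against the spread between libraries of the same group, pooled over all 4 groups. With 4 residual degrees of freedom, the spread of each gene leaned heavily on that of other genes (median of 78.3 prior degrees of freedom). That spread may be technical only.

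RNA of the genes that make up the fusion, RARA and PML, was not at equal levels in the groups. RARA, the retinoic acid receptor gene that supplies the 3' portion of the fusion, was at 23.1 ± 1.41 CPM (reads scaled to a common library total, SD, n = 2) in EV, 77.0 ± 1.88 in PR, 32.3 ± 0.182 in F158E and 1358 ± 9.67 in ΔIDR. PML, the other partner, had 51.9 CPM in EV, 124 in PR, 65.9 in F158E and 443 in ΔIDR. F158E libraries therefore carried less of both partners' RNA than PR libraries, and ΔIDR libraries carried more. The excess in ΔIDR over PR was larger for RARA than for PML. The part of these amounts in any difference between the constructs was not tested. RNA of the normal PML and RARA alleles, of any remaining endogenous fusion and of the construct is summed in these gene counts.

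Long non-coding RNAs act as RNA and are not translated. NEAT1 is the architectural RNA of paraspeckles, nuclear bodies built around the proteins NONO, SFPQ and PSPC1, and MALAT1 is an abundant RNA of nuclear speckles, which hold splicing factors. GAS5, SNHG1, ZFAS1 and EPB41L4A-AS1 are host genes whose introns carry small nucleolar RNAs (snoRNAs), the guides of ribosomal RNA modification, while their spliced exons are typically cleared by nonsense-mediated decay. PVT1 lies beside MYC, HOTAIRM1 lies within the HOXA cluster and is known for its induction during retinoic-acid-driven granulocytic differentiation, MIR22HG is the precursor of a microRNA, and MIAT is a nuclear RNA best known from neural tissue. Many snoRNA host transcripts begin with a C followed by further pyrimidines, the start tract shared with ribosomal protein mRNAs.

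The first bases of the host transcripts are shown because they are what this family of genes is known to share. RefSeq start sites (GRCh38.p14) and 1 GENCODE 29 start site are printed 5′ to 3′, with the leading C and the pyrimidines that directly follow it in capitals.
SNHG1 (chromosome 11, 62855856 to 62855885, minus strand): CTCatttttctactgctcgtggtaagtggc
ZFAS1 (chromosome 20, 49278642 to 49278671, plus strand): CTTTCgcgtctgcggtgcccggagtgtggt
EPB41L4A-AS1 (chromosome 5, 112160526 to 112160555, plus strand): tgtcgggtcccaaaatacgtggtctaaagt
GAS5, RefSeq start (chromosome 1, minus strand): agatgtgtttattttggagcctacaccagc
GAS5-210, the longest GENCODE transcript (chromosome 1, 173867960 to 173867989, minus strand): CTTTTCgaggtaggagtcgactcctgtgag

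A tract of C followed by at least 4 pyrimidines (C or T) opened ZFAS1 at its RefSeq start and GAS5-210, whose start lies 1056 bases downstream of the RefSeq start of GAS5. The tract was shorter in SNHG1 and was not found at the RefSeq start of EPB41L4A-AS1. Among 35116 RefSeq start sites of all genes, 4.07% opened with such a tract, against 6 of the 17 start sites (35.3%) matched for 21 other snoRNA host genes. By GENCODE 29 annotation, the tract opened 6 of 29 GAS5 transcripts, 3 of 10 of ZFAS1, 1 of 25 of SNHG1 and 4979 of all 206694 (2.41%).

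PML/RARα keeps the DNA-binding domain of the retinoic acid receptor, whose classical recognition hexamer is AGGTCA. Promoter windows from 250 bases before to 50 bases after the RefSeq start were matched for 7 of the 10 genes, in 8 windows. The window of GAS5 is shown because it alone among those 8 holds the hexamer, which reads TGACCT, in capitals, on the printed strand and begins 79 bases before the start (chr1:173868996-173869295, minus strand, GRCh38.p14).
GAS5 promoter window: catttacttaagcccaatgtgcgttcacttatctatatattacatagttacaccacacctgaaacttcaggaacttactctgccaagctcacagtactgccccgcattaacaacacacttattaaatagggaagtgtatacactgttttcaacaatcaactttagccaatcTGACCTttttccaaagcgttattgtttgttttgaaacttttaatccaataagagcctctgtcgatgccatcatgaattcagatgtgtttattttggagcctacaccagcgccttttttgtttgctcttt

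Searched on both strands, the hexamer AGGTCA was present in 4857 of 35116 windows (13.8%), so 1 of 8 (12.5%) is close to its general frequency. A direct repeat of the hexamer with 5 bases between copies was in 0 of the 8 windows and in 2 of all windows. A match describes these letters and not a bound site. The RefSeq start of GAS5, and with it the hexamer, lies upstream of the bounds that GENCODE 29 gives for the gene (173863900 to 173868882, minus strand). No window was searched around the GAS5-210 start, 1056 bases downstream of that RefSeq start.

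The 8 libraries held 16779364 to 21965389 reads assigned to genes, of which the 10 listed genes took 0.0384% to 0.0621%. Promyelocyte markers summed to 6003 CPM at the lowest, in a PR library, and to 11220 CPM in both ΔIDR libraries. MPO and SRGN made up most of each sum. SRGN was at 4369 CPM in EV, 2215 in PR, 3864 in F158E and 6403 in ΔIDR, and MPO at 3799, 3449, 4052 and 4139. The markers did not all move alike. CTSG was at 25.5 CPM in EV and 20.7 in ΔIDR, and CD33 at 63.1 and 53.9. Of those 8 markers, 7 had more than 5 counts in some library, and ELANE did not. T and B cell markers summed to at most 9.15 CPM and erythroid markers to at most 0.275 CPM. Epithelial markers summed to 6.47 to 14.9 CPM, with EPCAM at 115 to 272 counts. In such bulk RNA, fewer cells of a type and less RNA per cell cannot be told apart.

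Per kilobase of exon, 3 of the 4 listed host transcripts had the highest levels of the 10 RNAs. In EV, ZFAS1 was at 38.2 CPM per kilobase, SNHG1 at 33.4 and GAS5 at 20.8, above 91.5%, 90.0% and 83.4% of the tested genes. EPB41L4A-AS1 followed at 4.69 CPM per kilobase, above 52.5% of the tested genes, then MALAT1 at 2.79, PVT1 at 2.36, NEAT1 at 2.03 and HOTAIRM1 at 1.61. NEAT1 and MALAT1, which rank among the most abundant RNAs of many nuclei, were thus above only 37.6% and 43.0% of the tested genes on this scale. The exon length used for NEAT1 is that of all its transcripts together, 22767 bases, so a signal confined to the short form would be diluted in it.

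Ribosomal RNA was depleted before library preparation, a method that does not select for poly(A) tails. RNAs that lack such tails were nevertheless sparse in the gene counts. Of 7 identifiers of short structured RNAs (such as RMRP, RPPH1 and RN7SL1), 5 had 0 counts in all 8 libraries and RN7SL2 had 64 to 143. The 64 identifiers of replication-dependent histone genes summed to 285 to 835 counts. Both lists were chosen after the data were seen, and whether RNA without a tail reached the libraries was not tested; reads that matched several places were not counted, which bears on such repeated genes.

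**Figure D1:**
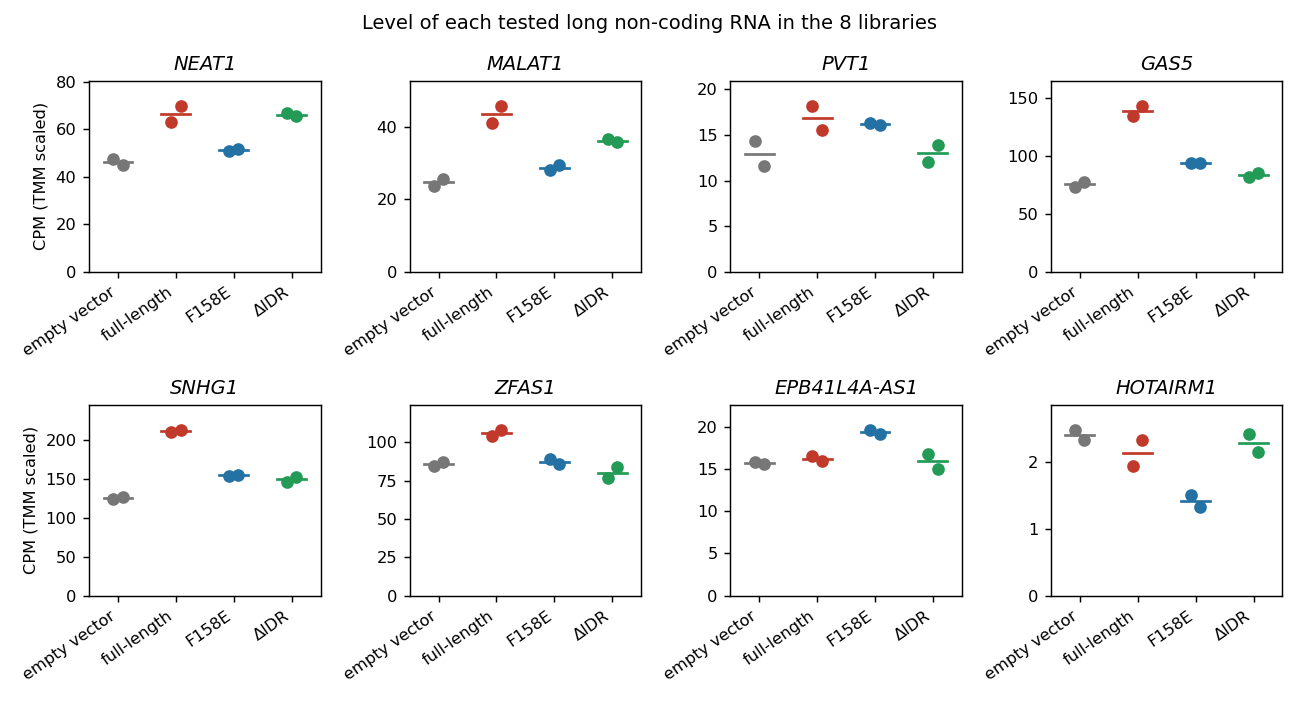
Level of each tested RNA in every library, as CPM, by group (EV, PR, F158E, ΔIDR). Each point is 1 library and the bars are group means. NEAT1 was high in PR and ΔIDR alike. MALAT1, GAS5, SNHG1 and ZFAS1 were highest in both PR libraries, and MALAT1 was next highest in ΔIDR.

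Full-length PML/RARα against the empty vector asks which levels differ when the full-length protein is supplied after the knockdown. Libraries given the full-length protein had higher levels of 6 of the 8 tested RNAs, and none was called lower. GAS5 rose 1.84-fold, MALAT1 1.76-fold, SNHG1 1.69-fold, NEAT1 1.44-fold, PVT1 1.30-fold and ZFAS1 1.24-fold. EPB41L4A-AS1 and HOTAIRM1 did not pass the test. The test was edgeR's quasi-likelihood test with Benjamini-Hochberg adjustment over all genes tested, and a gene was called at an adjusted p under 0.05. This comparison called 48.6% of all tested genes, with 24.2% higher and 24.4% lower. The libraries of the 2 groups did not overlap for 7 of the 8 RNAs, beside 71.7% of all tested genes. The median difference over the 8 tested RNAs was 0.46 on the log2 scale, beside 0.00 over all genes. Of 1434 tested genes of the GENCODE long non-coding types, 118 rose and 160 fell (19.4% called).

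NEAT1 (ENSG00000245532.5, chromosome 11, 65422774 to 65445540, plus strand) had 849 to 1431 counts per library. Its level was 47.4 and 44.8 CPM in EV, 63.2 and 69.9 in PR, 50.8 and 51.8 in F158E, and 66.9 and 65.5 in ΔIDR. The PR and ΔIDR libraries intermingled and all lay above the F158E and EV libraries. NEAT1 was 0.53 ± 0.08 (log2, SE) higher in PR than in EV (adjusted p = 1.16e-08, edgeR) and fell by 0.38 ± 0.08 from PR to F158E (adjusted p = 2.27e-05).

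Between ΔIDR and PR no difference in NEAT1 was detected. The level in ΔIDR differed from PR by -0.01 ± 0.08 (log2), with a 95% interval of -0.16 to 0.14 and an adjusted p of 0.944. Against EV it was 0.52 ± 0.08 higher in ΔIDR (adjusted p = 1.26e-07), and against F158E it was 0.37 ± 0.08 higher (adjusted p = 9.15e-05). F158E exceeded EV by 0.15 ± 0.08 without passing the test (adjusted p = 0.252). In the order PR, ΔIDR, F158E, EV, the step from ΔIDR to F158E was thus the one between neighbours that passed. GENCODE 29 lists 8 NEAT1 transcripts of 512 to 22743 bases, and a gene count does not separate the short from the long paraspeckle-forming form.

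MALAT1 (ENSG00000251562.6, chromosome 11, 65497688 to 65506516, plus strand) lies 52.1 kb downstream of NEAT1 on the same strand. It had 438 to 784 counts per library. Its level was 23.6 and 25.7 CPM in EV, 41.1 and 45.7 in PR, 28.1 and 29.3 in F158E, and 36.6 and 35.7 in ΔIDR. No group overlapped another, and ΔIDR lay between PR and F158E. The increase in PR over EV was 0.82 ± 0.10 (log2, adjusted p = 9.58e-11), and the level fell by 0.60 ± 0.10 from PR to F158E (adjusted p = 4.91e-07).

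In ΔIDR, MALAT1 was 0.55 ± 0.10 above EV (log2, adjusted p = 2.98e-05). It was 0.26 ± 0.10 below PR (adjusted p = 0.0213) and 0.33 ± 0.10 above F158E (adjusted p = 0.0119). Both kept their direction when any 1 library was left out, but not always the call. The difference from PR was -0.18 without PR replicate 2, -0.27 without ΔIDR replicate 1 and -0.24 without ΔIDR replicate 2, with adjusted p of 0.271, 0.0684 and 0.133. The difference from F158E was 0.31 without F158E replicate 1 and 0.32 without ΔIDR replicate 1, with adjusted p of 0.0951 and 0.0712.

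The histone transcripts as a list summed to less in PR than in EV. Their summed level was 33.2 and 32.4 CPM in EV, 16.2 and 16.9 in PR, 26.03 and 27.4 in F158E, and 40.3 and 38.2 in ΔIDR. Of the 12 tested histone genes, 8 fell and none rose in PR against EV, beside 24.4% of all tested genes called lower. A gene could enter those 12 through its counts in other groups alone, which favours falls in PR. H2BC18, with 1 and 2 counts in PR and 17 and 16 in F158E, is an example. The count of 8 is therefore no support for a fall, and the list was chosen after the data were seen. ΔIDR, in which NEAT1 and MALAT1 were also high, had the highest histone levels, and the part of these RNAs in the result was not tested.

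Genes of the nuclear bodies themselves did not move in 1 direction. Of 33 identifiers of paraspeckle protein genes, all of them tested, 10 rose and 12 fell in PR against EV. Over all tested genes, 24.2% were higher and 24.4% lower. The median difference of the 33 was -0.01 on the log2 scale, and MATR3 is counted under both of its identifiers. SFPQ, which binds NEAT1 with NONO, fell from 709 to 550 CPM (by 0.37 ± 0.03 on the log2 scale), and the RNA-binding protein gene EWSR1 fell by 0.36 ± 0.03. SMARCA4, the ATPase of a chromatin remodelling complex, rose from 141 to 292 CPM (1.05 ± 0.04). NONO rose from 681 to 823 CPM (0.27 ± 0.03), while PSPC1 was at 100.2 CPM in EV and 97.6 CPM in PR (adjusted p = 0.633); these 2 were chosen after their values were seen.

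Against PR, 12 of the 33 paraspeckle protein identifiers were higher and 9 lower in F158E, and 12 were higher and 12 lower in ΔIDR. Over all tested genes, 22.2% were higher and 21.8% lower in F158E than in PR, and 24.9% were called each way in ΔIDR. SFPQ returned to 721 CPM in F158E and 708 CPM in ΔIDR, beside 709 CPM in EV. Thus the level of SFPQ in ΔIDR differed from EV by -0.00 ± 0.03 on the log2 scale (adjusted p = 0.988), where NEAT1 differed by 0.52. Whether these 2 genes respond differently was not tested.

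Among 18 nuclear speckle genes, 2 rose and 6 fell in PR against EV, beside 24.2% higher and 24.4% lower over all tested genes. Against PR, 10 were higher and 2 lower in F158E (22.2% and 21.8% over all genes), and 7 were higher and 3 lower in ΔIDR (24.9% each way). CLK1, a kinase that phosphorylates splicing factors, fell from 91.4 to 41.6 CPM (by 1.14 ± 0.07 on the log2 scale) and was at 83.5 CPM in F158E and 88.0 CPM in ΔIDR. The speckle protein PNN fell by 0.41 ± 0.04 and the splicing factor SRSF5 by 0.26 ± 0.04. SRSF1, another splicing factor, rose by 0.19 ± 0.03.

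**Figure D2:**
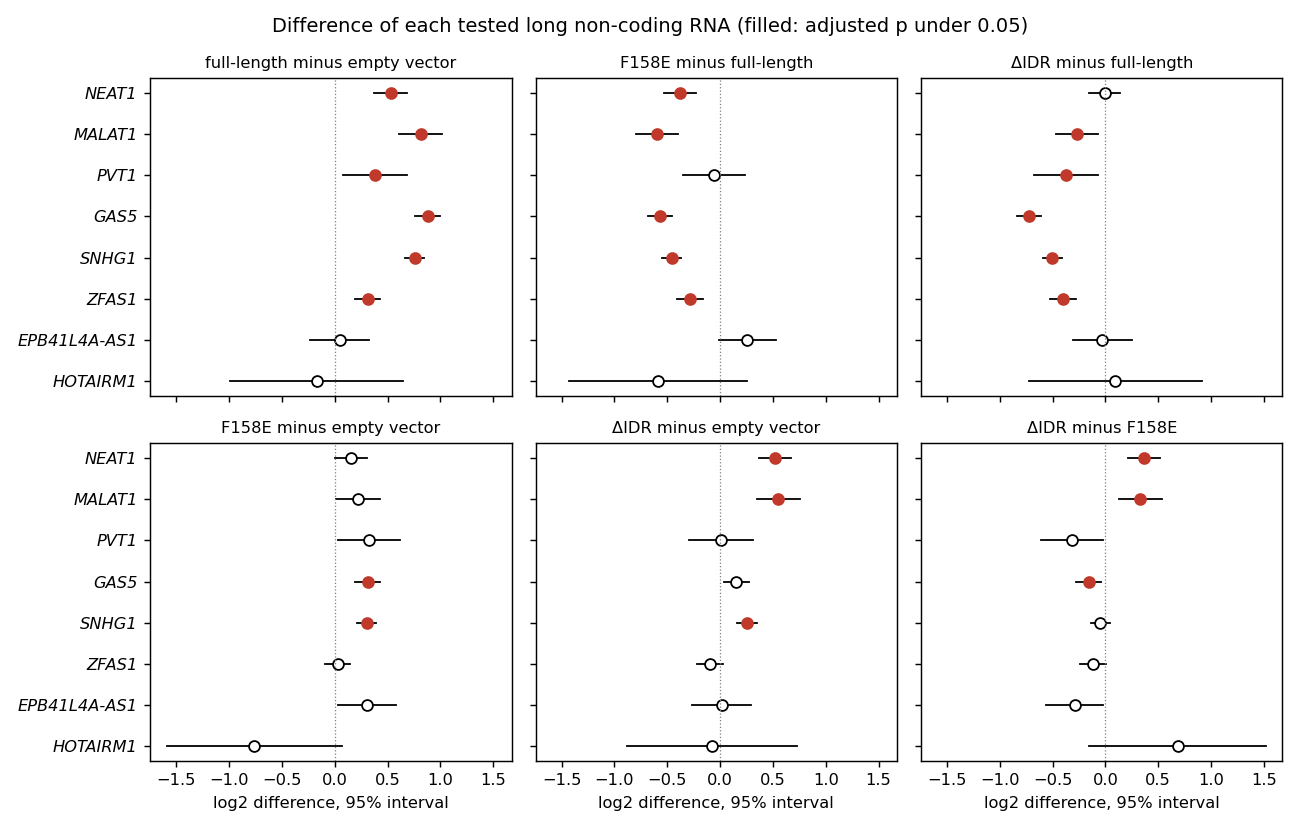
Log2 difference of each tested RNA in the 6 comparisons; points are estimates from the fit across all genes and bars are 95% intervals. NEAT1 and MALAT1 lay above 0 in ΔIDR against F158E, where GAS5 lay below 0.

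Of the 4 snoRNA host transcripts listed, GAS5, SNHG1 and ZFAS1 rose in PR against EV and EPB41L4A-AS1 did not pass the test. GAS5 (ENSG00000234741.6, chromosome 1, 173863900 to 173868882, minus strand) had 1360 to 2461 counts per library. Its level was 73.3 and 77.9 CPM in EV, 134.5 and 143.5 in PR, 93.8 and 93.9 in F158E, and 82.4 and 85.7 in ΔIDR. Both PR libraries stood far above the other 6, and no group overlapped another. GAS5 rose by 0.88 ± 0.06 (log2) in PR over EV (adjusted p = 1.86e-23, edgeR).

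From PR, GAS5 fell by 0.57 ± 0.06 in F158E (adjusted p = 2.34e-14) and by 0.72 ± 0.06 in ΔIDR (adjusted p = 3.37e-19). F158E kept a level 0.31 ± 0.06 above EV (adjusted p = 6.92e-05), whereas ΔIDR was 0.15 ± 0.06 above EV without passing the test (adjusted p = 0.0992). The direct difference of ΔIDR from F158E, -0.16 ± 0.06, passed narrowly (adjusted p = 0.0492). It missed the threshold under RLE scaling, under DESeq2, with 4 libraries in the fit, and without any 1 of the 4 libraries (adjusted p from 0.0504 to 0.284).

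SNHG1 (ENSG00000255717.5, chromosome 11, 62851988 to 62855914, minus strand) was the most counted of the 10, with 2306 to 3708 counts. Its level was 124 and 127 CPM in EV, 211 and 214 in PR, 154 and 155 in F158E, and 146 and 153 in ΔIDR. PR was again highest and EV lowest, with both mutants between them. SNHG1 rose by 0.76 ± 0.05 (log2) in PR over EV (adjusted p = 4.09e-26).

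SNHG1 then fell by 0.46 ± 0.04 in F158E (adjusted p = 6.57e-15) and by 0.50 ± 0.05 in ΔIDR (adjusted p = 6.87e-17), both against PR. Both mutants stayed above EV, by 0.30 ± 0.05 for F158E (adjusted p = 5.16e-07) and 0.25 ± 0.05 for ΔIDR (adjusted p = 1.86e-05). The 2 mutants differed by -0.05 ± 0.05 (ΔIDR minus F158E, adjusted p = 0.545).

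ZFAS1 (ENSG00000177410.11, chromosome 20, 49278178 to 49295738, plus strand) had 1267 to 1950 counts. Its level was 84.3 and 87.0 CPM in EV, 104 and 108 in PR, 89.1 and 85.5 in F158E, and 76.4 and 84.0 in ΔIDR. PR stood above the other 6 libraries, among which EV and F158E overlapped. ZFAS1 rose by 0.31 ± 0.06 (log2) in PR (adjusted p = 1.16e-05), and fell by 0.28 ± 0.06 in F158E (adjusted p = 5.52e-05) and by 0.40 ± 0.06 in ΔIDR (adjusted p = 3.15e-08), both from PR.

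Unlike SNHG1, neither mutant passed against EV for ZFAS1: the differences were 0.03 ± 0.06 for F158E (adjusted p = 0.871) and -0.09 ± 0.06 for ΔIDR (adjusted p = 0.442). The difference between those 2 genes was not tested. Exons of other genes cover 46.9% of the exon bases of ZFAS1, including those of ZNFX1 on the opposite strand, and the library kit does not mark strand.

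EPB41L4A-AS1 (ENSG00000224032.5, chromosome 5, 112160526 to 112164276, plus strand) is the fourth listed host, and its difference from the other 3 was not tested. With 273 to 430 counts, it was at 15.9 and 15.5 CPM in EV, 16.5 and 15.9 in PR, 19.6 and 19.2 in F158E, and 16.8 and 15.01 in ΔIDR. F158E was highest in both libraries, while the other 3 groups lay close together. In PR against EV it differed by 0.05 ± 0.14 (log2), with a 95% interval of -0.23 to 0.33 (adjusted p = 0.814). Its 0.31 ± 0.14 excess in F158E over EV did not pass (adjusted p = 0.171), nor did its 0.26 ± 0.14 excess over PR (adjusted p = 0.120).

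Exons of other genes cover 49.6% of the exon bases of EPB41L4A-AS1, all of them from EPB41L4A on the opposite strand. EPB41L4A itself had 0 to 12 counts per library.

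**Figure D3:**
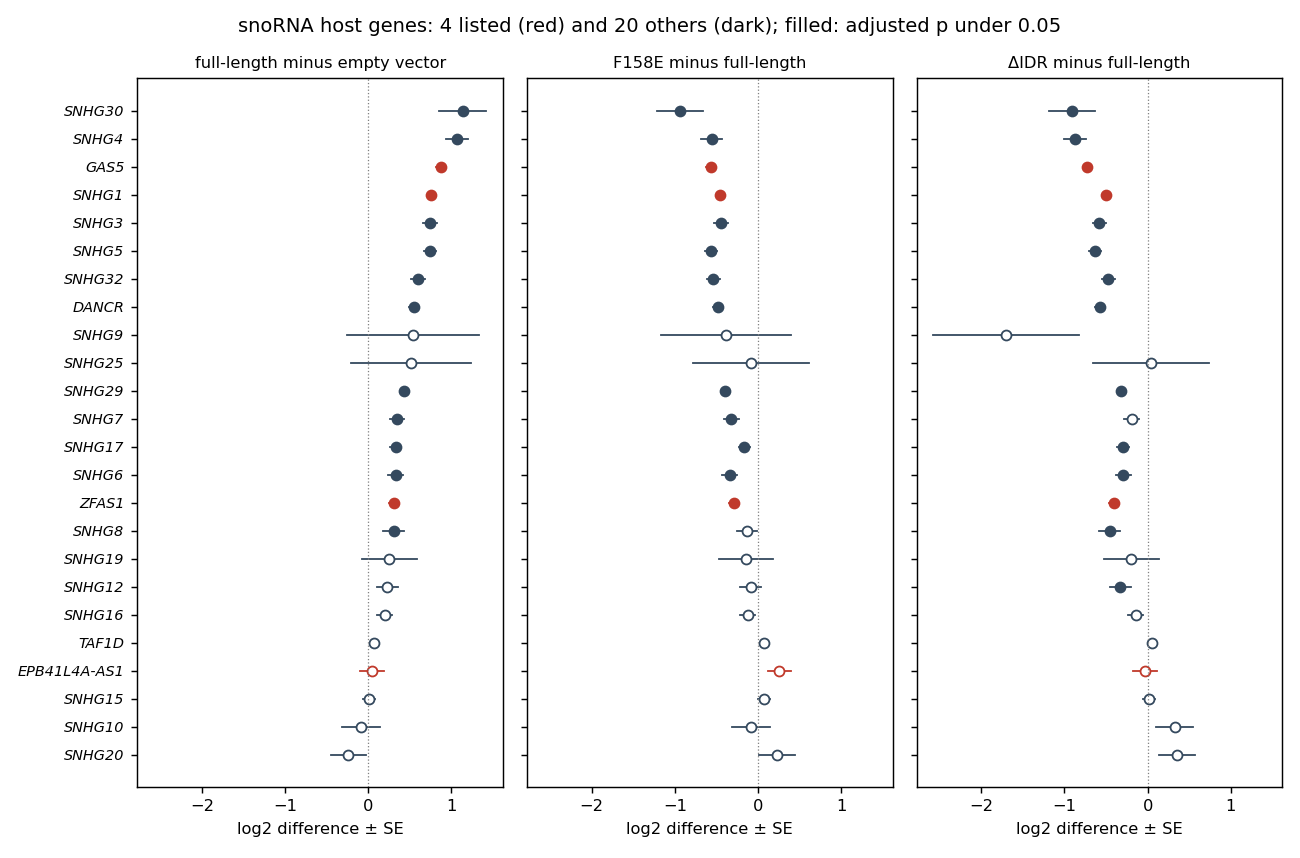
Log2 difference of each tested snoRNA host gene in PR against EV, F158E against PR and ΔIDR against PR, with 1 point a gene, bars for the SE and filled points for genes that passed. In PR against EV, 11 of the 20 tested hosts that are not among the listed RNAs rose and none fell.

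Beyond these 4, 20 of 21 other snoRNA host genes were tested. In PR against EV, 11 rose and none fell, beside 24.2% higher and 24.4% lower over all genes, with a median of 0.34 (log2) beside 0.00 over all genes. SNHG29 rose from 264 to 356 CPM (0.43 ± 0.04), SNHG5 from 52.2 to 87.2 CPM (0.74 ± 0.07) and DANCR from 79.7 to 117 CPM (0.56 ± 0.06). Against PR, 10 of these hosts fell in F158E and 11 in ΔIDR, beside 21.8% and 24.9% of all genes called lower, and none rose. Without PR replicate 1, 1 host was higher and 10 lower in ΔIDR. Between the mutants 0 were called by edgeR and 0 by DESeq2, and 3 had an unadjusted p under 0.05 in edgeR.

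Against EV, 3 of these hosts were higher in F158E and 2 in ΔIDR, beside 3.98% and 5.06% of all genes, and those small counts were unstable. Without EV replicate 2 or F158E replicate 2 the count for F158E was 1. The count for ΔIDR was 0 with DESeq2 and without EV replicate 1 or ΔIDR replicate 1, and 1 without EV replicate 2. All comparisons with PR use the same 2 PR libraries, and all with EV the same 2 EV libraries, so the counts are not independent of each other.

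The snoRNAs and microRNAs nested in these genes were barely counted. Of 21 identifiers matched, 15 had 0 counts in every library and 2 were tested. SNORD12B, an intronic snoRNA of ZFAS1, had 2 and 5 counts in EV, 18 and 21 in PR, 12 and 12 in F158E, and 11 and 6 in ΔIDR. SNORD12B was higher in PR than in EV by 2.55 ± 0.88 (log2, adjusted p = 0.0118, edgeR), from counts that limit the precision of that value. With so few counts in EV, it could enter the test only through other groups, which favours a rise over EV. The call is therefore no support for a rise. SNORA13, carried by EPB41L4A-AS1, had 1 to 16 counts and passed in no comparison.

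Because host exons are cleared by nonsense-mediated decay, the 18 factors of that pathway were counted as well. In PR against EV, 5 rose and 2 fell (24.2% and 24.4% over all genes), with a median of 0.03 (log2). UPF1, the central helicase of the pathway, fell from 301 to 230 CPM (by 0.39 ± 0.04). The release factor GSPT1 rose from 360 to 445 CPM (0.31 ± 0.03) and its partner ETF1 by 0.22 ± 0.03. UPF1 stood at 302 CPM in F158E and 301 CPM in ΔIDR, and was called higher than in PR in both mutants. In all, 2 factors were higher and 4 lower in F158E than in PR (22.2% and 21.8% over all genes), and 3 were higher and 8 lower in ΔIDR than in PR (24.9% each way). The part of these genes in the host transcripts' levels was not tested.

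PVT1 (ENSG00000249859.6, chromosome 8, 127794533 to 128101253, plus strand) had 200 to 357 counts. Its level was 14.3 and 11.6 CPM in EV, 18.2 and 15.6 in PR, 16.3 and 16.1 in F158E, and 12.1 and 13.9 in ΔIDR. PR and F158E were above EV and ΔIDR, and the replicates spread widely. PVT1 was 0.38 ± 0.15 (log2) higher in PR than in EV (adjusted p = 0.0289), and it fell by 0.37 ± 0.15 from PR to ΔIDR (adjusted p = 0.0324).

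Neither call for PVT1 was firm. The first was lost with DESeq2, with no filter on low counts, and without EV replicate 2 or PR replicate 1 (adjusted p from 0.0632 to 0.327), and the second with the first 2 of these settings and without PR replicate 1 or ΔIDR replicate 1 (adjusted p from 0.0693 to 0.312). F158E differed from PR by -0.06 ± 0.15, with an adjusted p of 0.785.

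MYC, the growth-promoting transcription factor encoded 53.1 kb upstream of PVT1, was far better counted. It was at 454 and 451 CPM in EV, 583 and 566 in PR, 507 and 483 in F158E, and 417 and 430 in ΔIDR. The order PR, F158E, EV, ΔIDR was separated at each step. MYC rose by 0.34 ± 0.03 (log2) in PR over EV (adjusted p = 1.18e-17), and from PR it fell by 0.21 ± 0.03 in F158E (adjusted p = 2.03e-09) and by 0.44 ± 0.03 in ΔIDR (adjusted p = 2.88e-23).

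HOTAIRM1 (ENSG00000233429.8, chromosome 7, 27095647 to 27100265, plus strand) was tested on 29 to 47 counts. Exons of other annotated genes cover 44.9% of its exon bases. Its level was 2.48 and 2.32 CPM in EV, 1.93 and 2.33 in PR, 1.51 and 1.33 in F158E, and 2.41 and 2.15 in ΔIDR. Both F158E libraries were lowest, and the other 3 groups overlapped. No comparison passed: PR differed from EV by -0.17 ± 0.41 (log2), with a 95% interval of -0.99 to 0.65, and F158E from EV by -0.76 ± 0.42 (adjusted p = 0.304).

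MIAT (ENSG00000225783.5, chromosome 22) had 3 and 2 counts in EV, 3 and 4 in PR, 11 and 2 in F158E, and 5 and 7 in ΔIDR. MIR22HG (ENSG00000186594.11, chromosome 17) had 0 and 1 counts in EV, 0 and 0 in PR, 0 and 0 in F158E, and 1 and 9 in ΔIDR. Neither reached the minimum for testing, which asked for about 10 counts in as many libraries as a group holds, and a single library held most of the MIR22HG counts. No comparison of these 2 RNAs was made.

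**Figure D4:**
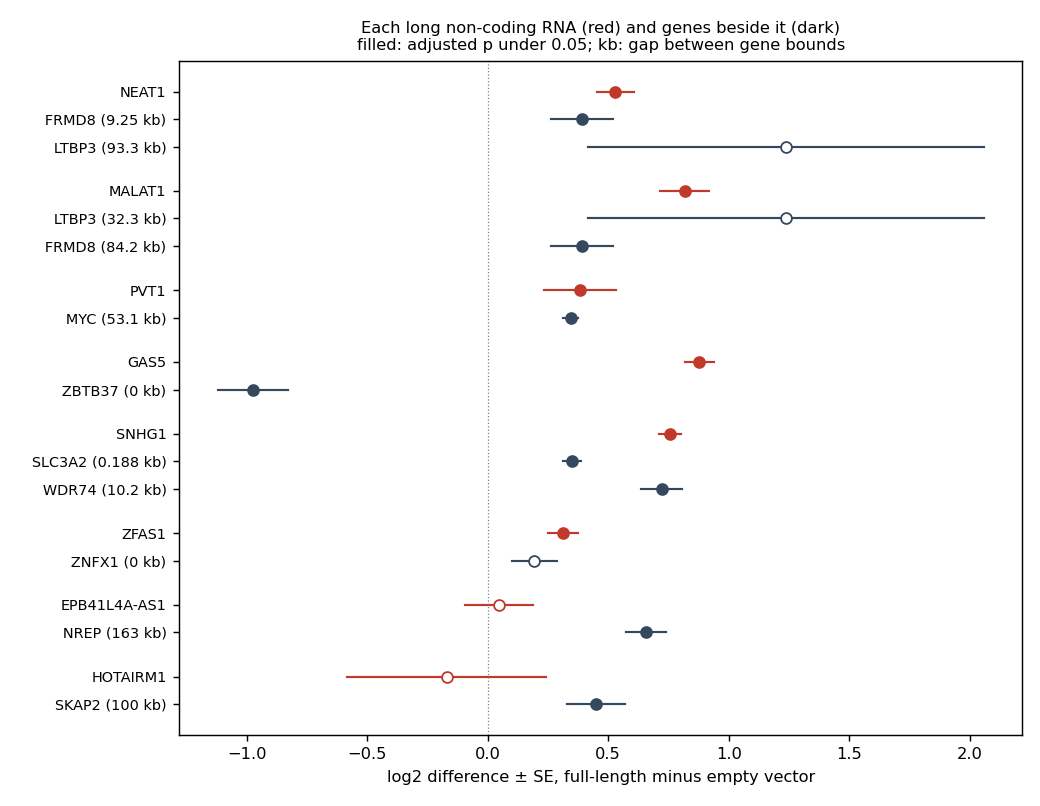
Log2 difference in PR against EV of the tested listed RNAs and of protein-coding genes beside them, with bars for the SE, filled points for genes that passed and the distance in kb. ZBTB37, which overlaps GAS5 on the opposite strand, lay below 0 while GAS5 lay above it.

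Most of the called genes beside the listed RNAs were higher in PR than in EV. Of 15 tested neighbours, 9 rose and 1 fell in PR against EV, beside 24.2% higher and 24.4% lower over all tested genes. In F158E 1 was higher and 11 lower than in PR (22.2% and 21.8% over all genes), and in ΔIDR 1 was higher and 7 lower than in PR (24.9% each way). FRMD8, 9.25 kb from NEAT1, rose by 0.39 ± 0.13 (log2, adjusted p = 0.00885). SLC3A2, an amino acid transporter subunit whose gene starts 188 bases from SNHG1 on the opposite strand, rose from 256 to 325 CPM (0.35 ± 0.04). WDR74, 10.2 kb from SNHG1, rose from 43.6 to 71.8 CPM (0.72 ± 0.09).

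ZBTB37 went the other way from GAS5, with which it overlaps on the opposite strand without sharing exon bases. ZBTB37 was at 19.3 and 22.7 CPM in EV, 12.7 and 8.57 in PR, 19.7 and 20.2 in F158E, and 23.6 and 23.6 in ΔIDR. It fell by 0.98 ± 0.15 (log2) in PR against EV (adjusted p = 1.76e-08), and it was higher in F158E than in PR by 0.90 ± 0.15 and in ΔIDR than in PR by 1.147 ± 0.15. Other neighbours that rose included NREP (0.66), SKAP2 (0.45) and PRPF8 (0.39), and ZNFX1 differed by 0.19 without passing (adjusted p = 0.0814).

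SKAP2, an adaptor gene 100408 bases from HOTAIRM1, was among the neighbours with a difference between the mutants. It was at 23.3 CPM in EV, 31.8 in PR, 19.1 in F158E and 30.6 in ΔIDR. It rose in ΔIDR over F158E by 0.67 ± 0.12 (log2, adjusted p = 4.48e-06).

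The remaining comparisons of the listed RNAs had the following counts. In F158E against PR, 5 of the 8 tested fell and none rose, where the background was 43.9% called, 22.2% higher and 21.8% lower. Their libraries did not overlap for 7 of the 8, beside 69.2% of all genes. In ΔIDR against PR, 5 fell and none rose, beside 49.9% called, 24.9% in each direction, and the libraries did not overlap for 5 of the 8, beside 72.7%. The 5 called were not the same RNAs: NEAT1 was called in F158E but not in ΔIDR, and PVT1 in ΔIDR but not in F158E.

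Against EV, 2 of the 8 (GAS5 and SNHG1) rose in F158E and none fell, beside 8.65% of all genes called, 3.98% higher and 4.67% lower. In ΔIDR, 3 (NEAT1, MALAT1 and SNHG1) rose and none fell, beside 10.3% called, 5.06% higher and 5.23% lower. Between the mutants, NEAT1 and MALAT1 were higher and GAS5 lower in ΔIDR than in F158E, beside 18.5% called, 9.17% higher and 9.37% lower. Libraries did not overlap for 7, 5 and 8 of the 8 RNAs in these 3 comparisons, beside 48.8%, 48.1% and 54.2% of all genes, so with 2 libraries a group a lack of overlap says little. The 8 tested RNAs had median differences of 0.26, 0.08 and -0.08 (log2) in these 3 comparisons, each beside a median within 0.01 of 0 over all genes.

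The protein-coding genes whose levels followed NEAT1 most closely, among 8495 compared over the 8 libraries, were EAF2, APPL1, PGM1, TPP1 and SRI, with Pearson correlations of 0.956 to 0.980 of log2 CPM. EAF2 was at 8.86 CPM in EV, 11.98 in PR, 9.82 in F158E and 12.9 in ΔIDR, and TPP1, a lysosomal protease, at 58.0, 86.5, 60.3 and 89.2. Like NEAT1, both were high in PR and ΔIDR. Those closest to GAS5 were DROSHA, CABIN1, DUS4L, FAAP100 and HPS4, at 0.992 to 0.997. DROSHA, the nuclear enzyme that cuts microRNA precursors, was at 151 CPM in EV, 218 in PR, 173 in F158E and 160.2 in ΔIDR, and DUS4L at 9.57, 21.9, 13.5 and 11.3. These correlations describe genes chosen as the highest of many, over libraries that share group and depth, and carry no test.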

How the data were processed

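Each of the 8 libraries has 1 table of raw read counts per Ensembl gene, as the authors deposited it. The submitters' processing notes name the builds hg38 and GRCh38; the aligner and the counting program are not given in the sources used here. Ribosomal RNA was depleted and the kit was NEBNext Ultra, per the labels' protocols. Rows that name no gene (11.3% to 12.1% of reads) were left out. Gene symbols came from a separate reference of gene names by Ensembl identifier, and from GENCODE 29 where that reference held none. Lengths and positions came from GENCODE 29, and starts and promoters from RefSeq GRCh38.p14.

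Genes were filtered with filterByExpr, scaled by TMM and fitted over all 8 libraries with edgeR 4.0.16 (R 4.3.3), and p-values were adjusted over the 13982 genes tested in each of 6 comparisons. SE is the log2 difference over the root of F. CPM values are TMM-scaled. The code was tested on simulated data. Replicates of a group differed by more than counting noise (chi-square per degree of freedom 2.94 to 3.56).

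The listed RNAs and gene lists were chosen with earlier results of these data known. Named from each list were the 3 genes of smallest adjusted p (PR against EV) among those moving the commoner way and 1 moving the opposite way, together with all tested neighbours and the 5 protein-coding genes most correlated with NEAT1 and with GAS5. Some genes that this rule names are not reported here. Alternatives were RLE scaling, no TMM factor, DESeq2 1.42.0, no filter, a replicate block, a fit of 4 libraries, a threshold of 0.01 and leaving out each library.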

Additional observations from a re-analysis of the deposited data

How the results depend on the processing

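The 48 differences of the 8 tested RNAs were each recomputed under 11 alternatives (528 values), of which 493 kept their direction and their side of the threshold, 25 kept the direction and lost the call, and 10 changed sign. The calls of NEAT1, MALAT1, GAS5, SNHG1 and ZFAS1 in PR against EV and in F158E against PR held under each alternative. All 10 sign changes concern differences that were not called, and for each the cause was not tested. They came on leaving out 1 library, and the lowest and highest values over the 4 libraries (log2) were as follows. PVT1 in F158E against PR ran from -0.167 to 0.0634, the latter without PR replicate 1, and in ΔIDR against EV from -0.125 without EV replicate 2 (-0.0897 without ΔIDR replicate 2) to 0.177. NEAT1 in ΔIDR against PR ran from -0.0694 to 0.0713 without PR replicate 2 (0.0186 without ΔIDR replicate 2). EPB41L4A-AS1 ran from -0.0994 to 0.0593 without ΔIDR replicate 2 (0.00306 without PR replicate 1) in ΔIDR against PR, and from -0.0555 without ΔIDR replicate 1 to 0.108 in ΔIDR against EV. HOTAIRM1 ran from -0.0254 without PR replicate 1 to 0.24 in ΔIDR against PR, and from -0.151 to 0.019 without ΔIDR replicate 2 in ΔIDR against EV. The number of listed RNAs called in ΔIDR against PR was 5, with 3 at an adjusted p under 0.01 and 3 to 4 on leaving out 1 library; in ΔIDR against F158E it was 3, with 1 at 0.01 and 1 to 2 on leaving out 1 library. Of the other snoRNA hosts, whose alternatives were chosen after seeing the data, 3 were called in F158E against EV (1 to 2 on leaving out 1 library). In ΔIDR against EV, 2 hosts were called, with 1 without the TMM factor, 0 with DESeq2, 1 with no filter, 0 at 0.01 and 0 to 2 on leaving out 1 library. In ΔIDR against F158E, 0 were called, with 1 without the TMM factor.

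Same-numbered libraries did not deviate together over all genes (correlations of -0.0163 to 0.0206 over 13982 genes). Such a check cannot exclude a shared batch that touches only some genes, and the labels state no block. With the replicate number as a block, the listed RNAs called were 6, 5, 5, 2, 3 and 3 in PR against EV, F158E against PR, ΔIDR against PR, F158E against EV, ΔIDR against EV and ΔIDR against F158E, the same counts as without it, and over all genes 6778, 6107, 6929, 1212, 1433 and 2599 were called.

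Over all genes, 1210 were called in F158E against EV, but 696 at 0.01 and 638 to 778 on leaving out 1 library; in ΔIDR against EV, 1439 were called, but 884 without EV replicate 2 and 944 without EV replicate 1. A group left with 1 library was assumed to vary like the others.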

Other observations

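Other long non-coding RNAs moved in both directions. Of 29 identifiers, 19 were tested, and in PR against EV 4 rose and 5 fell (edgeR, adjusted p under 0.05), beside 24.2% higher and 24.4% lower over all tested genes. MIR17HG, the precursor of the miR-17-92 cluster, fell from 17.8 to 9.12 CPM (by 0.97 ± 0.16 on the log2 scale), and CRNDE fell from 23.9 to 14.7 CPM (by 0.70 ± 0.13). Both were back near the EV level in the mutants, with MIR17HG at 17.8 CPM in F158E and 17.4 in ΔIDR, and CRNDE at 24.5 and 24.4.

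NORAD, a cytoplasmic RNA that binds PUMILIO proteins, had another pattern. It was at 408 CPM in EV, 351 in PR, 411 in F158E and 458 in ΔIDR. It fell by 0.22 ± 0.03 (log2) in PR against EV, and in ΔIDR it was 0.16 ± 0.03 above EV (adjusted p = 3.82e-05) and 0.15 ± 0.03 above F158E (adjusted p = 6.45e-05). TUG1 was at 123 CPM in EV, 156 in PR, 137 in F158E and 150.4 in ΔIDR, and it was above EV in all 3 other groups (adjusted p = 1.01e-08, 0.0369 and 4.41e-06).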
